A study of Homo sapiens with 6 samples.

Results

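The accessible chromatin around 7 transcription factor genes of the naive pluripotency circuit, KLF17, KLF4, KLF5, KLF2, TFCP2L1, ESRRB and TBX3, was compared between human naive embryonic stem (nES) cells with and without dimethyl α-ketoglutarate (dm-αKG). The regions were chosen by position alone. Every region of the deposited count table that lay inside one of these genes, or within 50 kb of it in the hg38 build with GENCODE 44 gene positions, was taken, which gave 175 of 171517 regions. ESRRB held 37 of them, TBX3 36, KLF5 30, KLF4 27, TFCP2L1 19, KLF17 14 and KLF2 12.

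The libraries were made by ATAC-seq, in which a transposase inserts sequencing adapters where DNA is not covered by nucleosomes, so that reads gather at open sites. All came from the H9 line of human embryonic stem cells, which is long established, grown in tt2iLGö medium, which combines inhibitors of MEK (PD0325901), GSK3 (CHIR99021) and protein kinase C (the Gö compound) with leukaemia inhibitory factor (LIF) and holds the cells in a naive state. The cells had been kept on mouse embryonic fibroblasts and were freed of these feeders on gelatin before plating on laminin. There were 3 control cultures without dm-αKG (0 mM, named DMSO in the sample labels) and 3 cultures that received 4 mM dm-αKG, a cell-permeable form of α-ketoglutarate, for 24 h before collection. The labels place 48 h of plain medium before these 24 h, and the methods do not mention it. The study treats the 3 cultures of each arm as biological replicates of an experiment done once, in 1 cell line. The errors below therefore do not reach beyond these cultures. A standard error (SE) comes from the fit, which borrows variance across regions, and an SD is the spread of 3 libraries. As each library is a bulk sample, fewer cells with a site open and less opening per cell cannot be told apart.

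Krüppel-like factors (KLFs) are zinc finger proteins that bind GC-rich and CACC-type sites. KLF2, KLF4 and KLF5 help to hold mouse embryonic stem cells in the naive state, where they overlap in function, and KLF17 is a marker of the human naive epiblast. TFCP2L1 is a grainyhead-family factor that acts downstream of LIF signalling in mouse cells. ESRRB is an orphan nuclear receptor and TBX3 a T-box factor, and both belong to the mouse naive circuit. Genes of this kind are served by a promoter and by distal enhancers, and accessibility at these sites is what the counts measure, not transcription.

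Counts in regions per library lay between 13025674 and 26828622. The lowest count of a member region in a library was 1, and 164 of the 175 regions had at least 10 counts in every library. Values below are normalized read counts, that is, reads in a region after scaling to a common library size. A region was said to fall or rise where the adjusted p of edgeR's quasi-likelihood test over all 171517 regions was below 0.01, and it was called where the absolute log2 fold change was also above 1. Folds are those of the fit, from its log2 fold change, and can differ slightly from the ratio of mean counts. Promoter regions of cell type markers were open in these libraries, which does not by itself show expression. Normalized counts summed over the promoter regions of 5 general pluripotency genes were 1972 to 2007 in control and 1875 to 1934 with dm-αKG, and those of 5 of 6 naive markers (DPPA3 had no promoter region) were 1613 to 1746 and 1721 to 1849. The same sums were 1222 to 1334 and 1122 to 1168 for 6 primed markers, 1604 to 1727 and 1700 to 1742 for 6 trophectoderm markers, 826 to 923 and 796 to 1002 for 5 primitive endoderm markers, and 606 to 656 and 648 to 724 for 4 of 5 fibroblast markers (COL3A1 had none). The naive sum mixes opposite changes. KLF17, itself 1 of the 7 genes, fell (means of 405 and 310) and SUSD2 rose (746 and 936), while DPPA5, DNMT3L and ARGFX did not pass. Every region was a called peak and each gene gave its most open promoter region, so no sum could be 0. The sums thus do not show which cell types were present, and the part of other cell types in the results was not tested.

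The sequences below show, for each gene but KLF5, regions with a small adjusted p or a call, chosen because the results at these genes turn on them. Each is the 200 bases around the centre of its region, read 5′ to 3′ on the plus strand of hg38. Capitals mark matches to the consensus motifs described further down, and lines without capitals have no match. Distances are from the annotated gene start along the direction of transcription.
KLF17, 42.6 kb upstream, chr1:44076098-44076297: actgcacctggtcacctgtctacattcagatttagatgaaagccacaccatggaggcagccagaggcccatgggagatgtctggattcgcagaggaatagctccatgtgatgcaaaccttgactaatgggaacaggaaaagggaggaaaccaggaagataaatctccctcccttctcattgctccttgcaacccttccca
KLF17, 0.928 kb downstream, chr1:44119649-44119848: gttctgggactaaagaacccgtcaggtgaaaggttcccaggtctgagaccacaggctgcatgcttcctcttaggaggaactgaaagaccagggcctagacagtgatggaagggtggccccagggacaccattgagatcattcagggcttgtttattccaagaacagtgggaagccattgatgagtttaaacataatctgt
KLF4, 51.9 kb downstream, chr9:107438456-107438655: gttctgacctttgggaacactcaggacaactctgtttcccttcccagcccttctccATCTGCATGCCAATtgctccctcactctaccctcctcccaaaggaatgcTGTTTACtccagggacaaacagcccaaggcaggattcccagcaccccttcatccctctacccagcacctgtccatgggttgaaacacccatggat
KLF2, promoter, chr19:16324581-16324780: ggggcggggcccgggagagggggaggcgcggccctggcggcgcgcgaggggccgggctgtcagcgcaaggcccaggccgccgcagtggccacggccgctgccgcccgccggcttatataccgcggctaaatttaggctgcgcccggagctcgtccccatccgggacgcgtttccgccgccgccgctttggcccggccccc
TFCP2L1, 28.0 kb downstream, chr2:121257121-121257320: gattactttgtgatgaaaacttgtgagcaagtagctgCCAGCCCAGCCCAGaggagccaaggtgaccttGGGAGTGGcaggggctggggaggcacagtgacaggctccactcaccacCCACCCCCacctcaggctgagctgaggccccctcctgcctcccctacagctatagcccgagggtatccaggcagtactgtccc
ESRRB, 115.6 kb downstream, chr14:76426251-76426450: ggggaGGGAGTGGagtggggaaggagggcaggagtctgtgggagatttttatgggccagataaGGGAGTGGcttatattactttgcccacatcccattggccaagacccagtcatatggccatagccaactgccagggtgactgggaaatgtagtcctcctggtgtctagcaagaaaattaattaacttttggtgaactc
ESRRB, 207.1 kb downstream, chr14:76517708-76517907: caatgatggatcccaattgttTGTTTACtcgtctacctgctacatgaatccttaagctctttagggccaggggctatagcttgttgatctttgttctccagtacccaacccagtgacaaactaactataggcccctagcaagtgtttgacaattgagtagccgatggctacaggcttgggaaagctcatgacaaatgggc
TBX3, 40.6 kb downstream, chr12:114643491-114643690: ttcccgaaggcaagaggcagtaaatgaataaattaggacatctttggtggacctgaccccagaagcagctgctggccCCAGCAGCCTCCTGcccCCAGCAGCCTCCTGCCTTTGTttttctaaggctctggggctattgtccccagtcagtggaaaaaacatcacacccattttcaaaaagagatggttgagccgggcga

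Accessibility fell at 20 of the 175 regions and rose at 11 with dm-αKG. These were 11.4% and 6.29% of the regions, against 6.54% lower and 3.34% higher among all regions of the table. Of the 9 regions called, 3 were less accessible (1.71%, against 1.96% of all regions) and 6 were more accessible (3.43%, against 0.782%). Together these were 5.14% of the members, against 2.74% of all regions. Among the 83 regions of the 4 KLF genes, 15 fell (18.1%) and 4 rose (4.82%). Among the 92 of TFCP2L1, ESRRB and TBX3, 5 fell (5.4%) and 7 rose (7.61%). Neither group was uniform, as 0 KLF2 regions fell and 0 TFCP2L1 regions rose. The median log2 fold change over the 175 regions was -0.13, and that over all regions was 0.01. The dm-αKG libraries lay below every control library at 48 regions (27.4%, against 16.9% of all regions) and above at 22 (12.6%, against 15.5%). The remaining 144 regions did not pass the adjusted p, and 69 of the 175 had an unadjusted p below 0.05, as had 52646 of all 171517 regions.

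**Figure D1:**
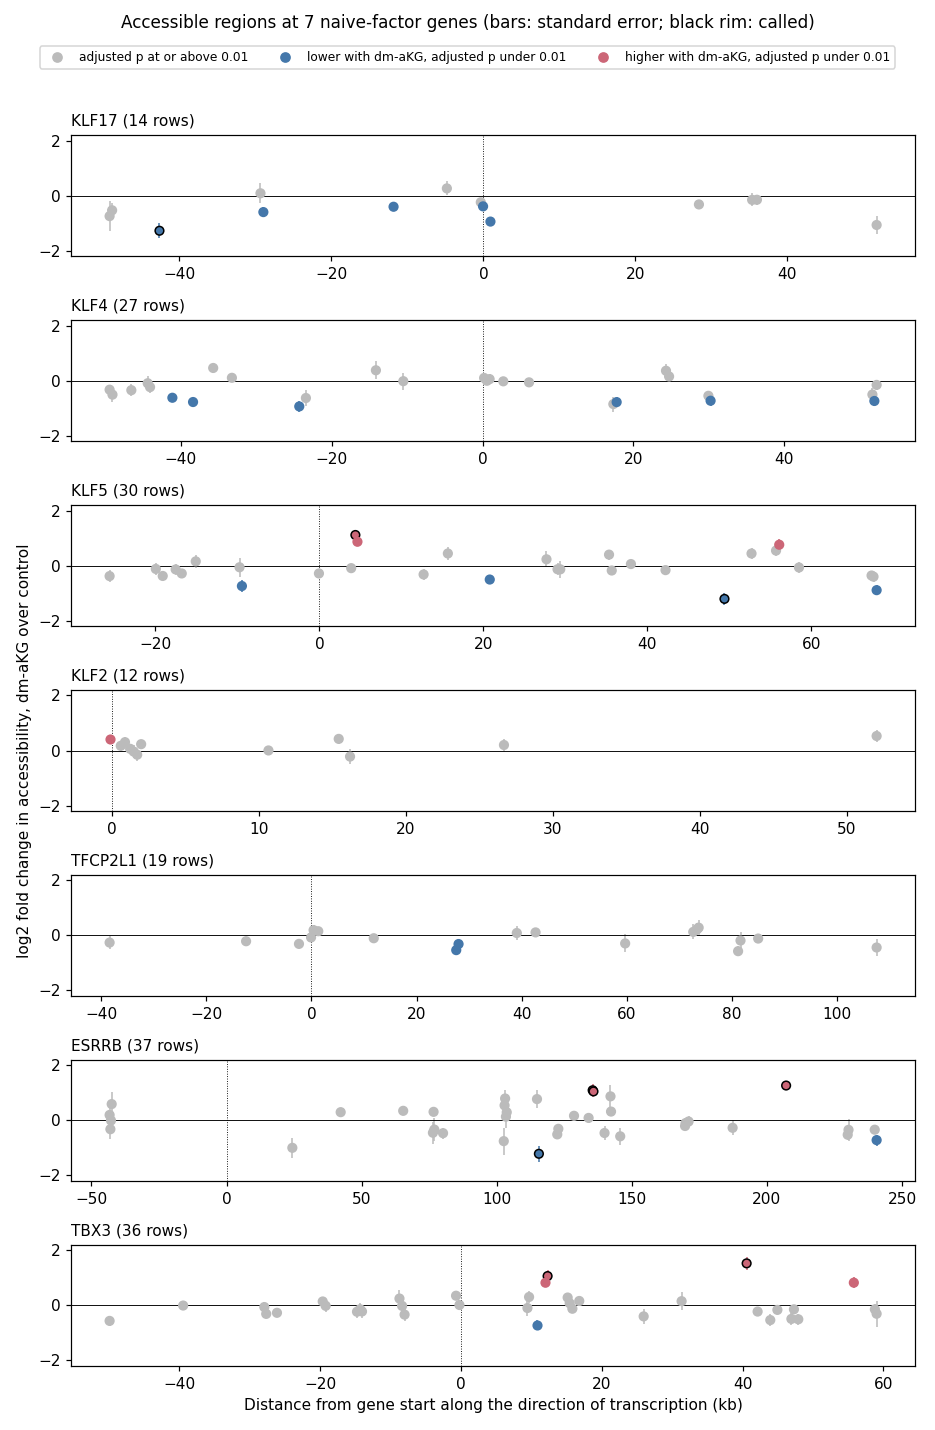
Log2 fold change in accessibility (dm-αKG over control, y axis) of the 175 regions against their distance from the gene start in kb along the direction of transcription (x axis), with 1 panel per gene, bars for the standard error, colours for an adjusted p below 0.01 and black rims for the 9 called regions. The blue points (20 lower) gather at KLF17 and KLF4, the red points (11 higher) lie at KLF5, KLF2, ESRRB and TBX3, and the regions at the gene starts of KLF4, TFCP2L1 and TBX3 lie near 0.

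KLF17, the naive epiblast marker, had the largest share of regions that fell among the 7 genes (35.7%, against 6.54% of all regions). Its gene lies on chromosome 1 (chr1:44118821-44135140, plus strand, ENSG00000171872). Of its 14 regions, 5 fell and 12 had a log2 fold change below 0, with a median of -0.40. At the promoter region (chr1:44118680-44118881, over the first exon), normalized read counts were 454, 377 and 383 in control and 299, 334 and 298 with dm-αKG. The 3 treated libraries lay below the 3 controls, with a log2 fold change of -0.39 ± 0.092 (SE) and an adjusted p of 0.00100. Without control 1 it was -0.29 with an adjusted p of 0.0580, and without dm-αKG 1 it was -0.35 with an adjusted p of 0.0167.

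The region in the KLF17 intron (chr1:44119649-44119849) fell as well. Its counts were 188, 221 and 197 in control and 120, 94.9 and 94.3 with dm-αKG, a 1.92-fold lower level in groups that did not overlap. The log2 fold change was -0.94 ± 0.14 (SE) with an adjusted p of 1.19e-07. The called region 42.6 kb upstream (chr1:44076099-44076298) lies in an exon of a long non-coding RNA gene, ENSG00000230615. It held 51.9, 59.2 and 54.7 normalized reads in control and 19.4, 32.1 and 18.0 with dm-αKG, which was 2.42-fold lower (log2 fold change -1.28 ± 0.27, SE, adjusted p = 0.000257). This region was in the control peak list alone, with a fold enrichment of 14.2 there. A pair of further regions over the same non-coding gene, 28.9 kb and 11.8 kb upstream, fell by 0.60 and 0.40 on the log2 scale, with adjusted p of 0.00630 and 0.000888.

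KLF4 is a reprogramming factor encoded on chromosome 9 (chr9:107484852-107490482, minus strand, ENSG00000136826). Its promoter region did not pass the test. Of its 23 regions more than 1 kb from any protein-coding transcript start, 6 fell (26.1%, against 8.42% of all such regions). At the promoter (chr9:107489705-107490105), counts were 328, 384 and 339 in control and 354, 358 and 335 with dm-αKG. These overlap, and the log2 fold change was -0.005 ± 0.091 (SE) with an adjusted p of 0.978.

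The KLF4 region 51.9 kb downstream (chr9:107438454-107438659) is in an intron of the long non-coding RNA gene LINC01509. It had the highest count per 200 bases in the KLF4 window and is the line above with the OCT-SOX match. Its counts were 326, 305 and 300.0 in control and 176, 173 and 214 with dm-αKG. The treated libraries were all lower, 1.67-fold in the fit (log2 fold change -0.74 ± 0.11, SE, adjusted p = 1.10e-07). On the other side of the gene, 41.1 kb upstream (chr9:107531496-107531705, outside annotated genes), counts were 195, 192 and 174 in control and 130, 116 and 117 with dm-αKG, again without overlap (log2 fold change -0.62 ± 0.14, SE, adjusted p = 0.000316). The other 4 regions that fell lay 30.2 kb and 17.8 kb downstream and 24.3 kb and 38.4 kb upstream, with log2 fold changes from -0.94 to -0.73 and groups that did not overlap.

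KLF5 is encoded on chromosome 13 (chr13:73054976-73077541, plus strand, ENSG00000102554). It held regions that moved in opposite directions. Among its 30 regions, 4 fell (13.3%, against 6.54% of all regions) and 3 rose (10.0%, against 3.34%). The promoter region, at an alternative start 3.88 kb inside the gene (chr13:73058753-73058957), was the most open of all 175 regions. Its counts were 1054, 996 and 1074 in control and 922, 1063 and 946 with dm-αKG, which overlap (log2 fold change -0.094, adjusted p = 0.330).

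Close to it, 2 regions over a KLF5 exon rose. At 4.39 kb from the gene start (chr13:73059266-73059465), counts were 50.1, 53.4 and 43.7 in control and 110, 135 and 73.3 with dm-αKG. The groups did not overlap, and the level was 2.16-fold higher (log2 fold change 1.11 ± 0.20, SE, adjusted p = 8.45e-06). Without dm-αKG 2 the log2 fold change was 0.93, below the call threshold. The neighbouring region at 4.64 kb (chr13:73059518-73059717) went from 118, 92.1 and 82.6 to 199, 201 and 127, 1.82-fold higher (log2 fold change 0.87 ± 0.15, SE, adjusted p = 7.32e-06). These regions have 76.0% and 79.0% GC, are neighbours and overlap the same peak of the dm-αKG list, so they are not independent.

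Further into KLF5, a region over a later exon (chr13:73075653-73075853) fell. Its counts were 490, 418 and 436 in control and 305, 317 and 328 with dm-αKG, 1.42-fold lower with no overlap (log2 fold change -0.51 ± 0.088, SE, adjusted p = 6.80e-06). It also held an OCT-SOX match. A called region downstream of the gene held 92.1, 92.9 and 68.0 reads in control and 39.4, 30.8 and 38.9 with dm-αKG. It was 2.32-fold lower (log2 fold change -1.21 ± 0.22, SE, adjusted p = 1.14e-05) and was listed as a peak in control alone. The remaining changes were a rise at 56.1 kb (log2 fold change 0.76) and falls at 9.45 kb upstream (-0.74) and 68.0 kb downstream (-0.89).

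KLF2 is a short gene on chromosome 19 (chr19:16324826-16328685, plus strand, ENSG00000127528) with values mostly above 0. Of its 12 regions, 9 had a log2 fold change above 0, with a median of 0.19. The test was passed by 1, a rise (8.33%, against 3.34% of all regions). That was the promoter region (chr19:16324565-16324798), whose counts were 149, 148 and 151 in control and 219, 204 and 174 with dm-αKG. The treated libraries lay above the controls, 1.35-fold in the fit (log2 fold change 0.43 ± 0.13, SE), but the adjusted p of 0.00990 was just inside the threshold. It was 0.0412 with DESeq2, 0.0104 among regions with at least 10 counts in every library, 0.0123 with the replicate block, and between 0.0243 and 0.121 without control 1, 2 or 3 or without dm-αKG 1 or 2.

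The most open KLF2 region per 200 bases, over an exon (chr19:16325975-16326183), went from 147, 154 and 165 to 164, 148 and 174, which overlap (log2 fold change 0.062). A region 15.4 kb downstream (chr19:16340165-16340373) carried the single ESRRB consensus match among the 175 regions. Its counts were 63.5, 69.9 and 76.5 in control and 78.9, 94.9 and 112 with dm-αKG. The groups did not overlap, but the log2 fold change of 0.42 had an adjusted p of 0.100. The KLF2 window also holds the start of EPS15L1, and 1 of the 12 regions lies over another protein-coding gene.

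At TFCP2L1 (chr2:121216587-121285202, minus strand, ENSG00000115112), 2 of 19 regions fell (10.5%, against 6.54% of all regions). Both are in an intron about 28 kb from the gene start and lie under the same listed peak. The larger (chr2:121257119-121257324) was the most open region of the gene, with counts of 741, 731 and 752 in control and 564, 609 and 626 with dm-αKG. The groups did not overlap, and the level was 1.24-fold lower (log2 fold change -0.31 ± 0.072, SE, adjusted p = 0.000733). Without dm-αKG 1 the value was -0.26 with an adjusted p of 0.0201. The smaller (chr2:121257554-121257764) went from 153, 141 and 143 to 106, 98.8 and 94.3 (log2 fold change -0.53 ± 0.15, SE, adjusted p = 0.00673). It did not pass when any single library was left out, with adjusted p between 0.0159 and 0.0484, nor with DESeq2, where it was 0.0255. The promoter region (chr2:121285173-121285377) held 284, 286 and 254 in control and 280, 243 and 259 with dm-αKG, which overlap (log2 fold change -0.073, adjusted p = 0.672).

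ESRRB is a long gene on chromosome 14 (chr14:76310712-76501837, plus strand, ENSG00000119715), and the count table holds no region at its annotated 5′ start. Its changes went both ways. Of its 37 regions, 2 were lower (5.4%, against 6.54% of all regions) and 3 higher (8.11%, against 3.34%). Of these, 4 were called (10.8% of the 37, against 2.74% of all regions). The promoter region used here, at an internal transcript start (chr14:76439168-76439367), held 257, 237 and 254 in control and 255, 327 and 262 with dm-αKG. These overlap (log2 fold change 0.17, adjusted p = 0.277).

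The largest change at ESRRB was a rise beyond the 3′ end of the gene, in an intron of the long non-coding RNA gene ENSG00000259124 (chr14:76517708-76517909). Counts there were 68.0, 98.6 and 72.9 in control and 182, 196 and 208 with dm-αKG. Every treated library was above every control, 2.41-fold in the fit (log2 fold change 1.27 ± 0.15, SE, adjusted p = 1.24e-10), and the call held without any single library (1.16 to 1.47). The region was a peak in both lists. Inside ESRRB, a pair of adjoining intronic regions under 1 listed peak also rose. The first (chr14:76446102-76446354) went from 36.7, 42.7 and 31.6 to 76.0, 83.4 and 82.3 (log2 fold change 1.10 ± 0.22, SE, adjusted p = 8.04e-05). The second (chr14:76446385-76446595) went from 55.5, 57.5 and 35.2 to 100.4, 110 and 105 (log2 fold change 1.05 ± 0.19, SE, adjusted p = 1.80e-05), and its value fell below the call threshold, to 0.89, without control 3.

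In the opposite direction, an ESRRB intronic region with 2 KLF matches (chr14:76426252-76426451) held 50.1, 44.4 and 49.8 reads in control and 29.4, 10.3 and 18.0 with dm-αKG. The treated libraries were lower, 2.32-fold in the fit (log2 fold change -1.21 ± 0.29, SE, adjusted p = 0.00134). These are low counts, and the call did not hold without control 1 (adjusted p = 0.0112), without dm-αKG 2 (log2 fold change -0.94, adjusted p = 0.0276) or with DESeq2 (adjusted p = 0.0111). The other region that fell lay 240.6 kb from the start, with a log2 fold change of -0.72.

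TBX3 (chr12:114670255-114684175, minus strand, ENSG00000135111) held 36 regions. Of these, 4 rose (11.1%, against 3.34% of all regions) and 1 fell (2.78%, against 6.54%). Its promoter region (chr12:114684299-114684502) was the second most open promoter of the 7, with 800, 760 and 729 in control and 742, 783 and 795 with dm-αKG. These overlap (log2 fold change 0.013, adjusted p = 0.924). The called region 40.6 kb downstream of the start and beyond the gene (chr12:114643492-114643691) rose from 31.3, 35.4 and 15.8 to 93.2, 91.1 and 56.9. No library overlapped, and the level was 2.88-fold higher (log2 fold change 1.53 ± 0.24, SE, adjusted p = 5.55e-07), the largest log2 fold change of the 175 regions. It was a peak of the dm-αKG list alone.

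A pair of neighbouring regions over a TBX3 exon, under 1 peak of the dm-αKG list, rose as well. One (chr12:114671779-114671978) went from 33.1, 30.4 and 41.3 to 76.7, 84.7 and 52.4, 2.09-fold higher (log2 fold change 1.06 ± 0.23, SE, adjusted p = 0.000335). Its value was 0.98 without control 2 and 0.95 without dm-αKG 2, both under the call threshold. The next (chr12:114672080-114672279) went from 68.0, 90.4 and 89.9 to 172, 131 and 126 (log2 fold change 0.82 ± 0.16, SE, adjusted p = 6.59e-05), and had an adjusted p of 0.0162 without dm-αKG 1. The remaining rise was 55.8 kb downstream (log2 fold change 0.82), and the single fall was in an intron 10.8 kb from the start (-0.72).

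**Figure D2:**
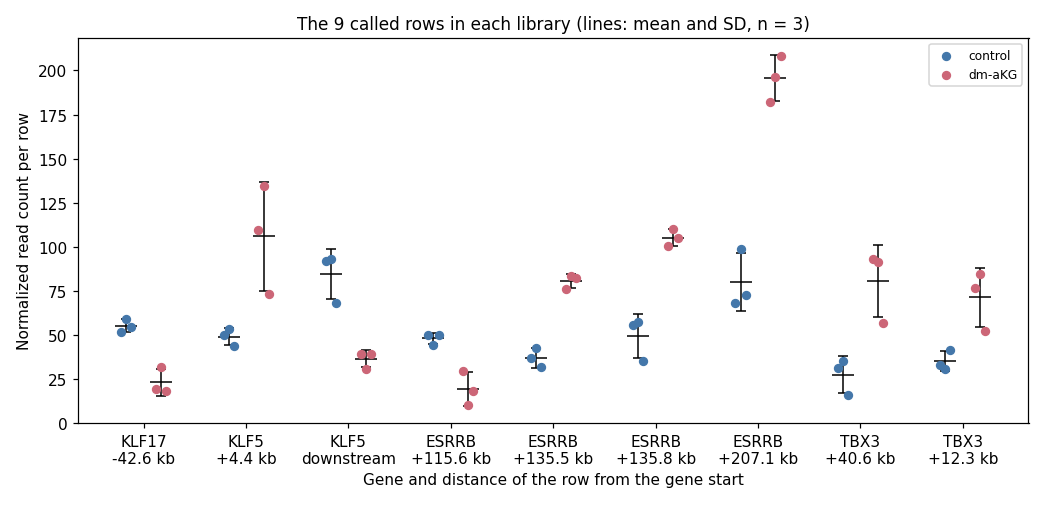
Normalized read count (y axis, from 0) of the 9 called regions in each library, labelled by gene and distance from the gene start, or as downstream (x axis), with a point per library and black lines for the mean and SD of 3 libraries. The 3 less accessible regions lie at KLF17, KLF5 and ESRRB and the 6 more accessible ones at KLF5, ESRRB and TBX3, and control and dm-αKG points do not overlap in any of the 9. These 9 were chosen by their change in the same libraries, so the separation is not separate evidence.

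The promoter regions of the 7 genes ranged widely in openness. Per 200 bases, control levels were 1016 ± 39.4 for KLF5, 748 ± 34.8 for TBX3, 401 ± 42.9 for KLF17, 268 ± 17.7 for TFCP2L1, 249 ± 10.8 for ESRRB, 175 ± 14.7 for KLF4 and 128 ± 1.14 for KLF2 (normalized reads, SD, n = 3). TFCP2L1 and ESRRB overlapped in this order, and the other neighbours did not. With dm-αKG this most open promoter region fell at KLF17 and rose at KLF2, and that of the other 5 genes did not pass the test. Among the most open promoter regions of 16270 protein-coding genes, 2.63% fell and 3.74% rose. Further regions within 1 kb of a transcript start changed too. At KLF17 2 of 3 such regions fell, and at KLF5 1 of 5 fell and 2 rose, all described above. Of all 50907 regions within 1 kb of a protein-coding transcript start, 1059 fell and 2276 rose. The region at the annotated KLF5 start did not pass (log2 fold change -0.29, adjusted p = 0.0257). A median promoter held 297 normalized reads in control.

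**Figure D3:**
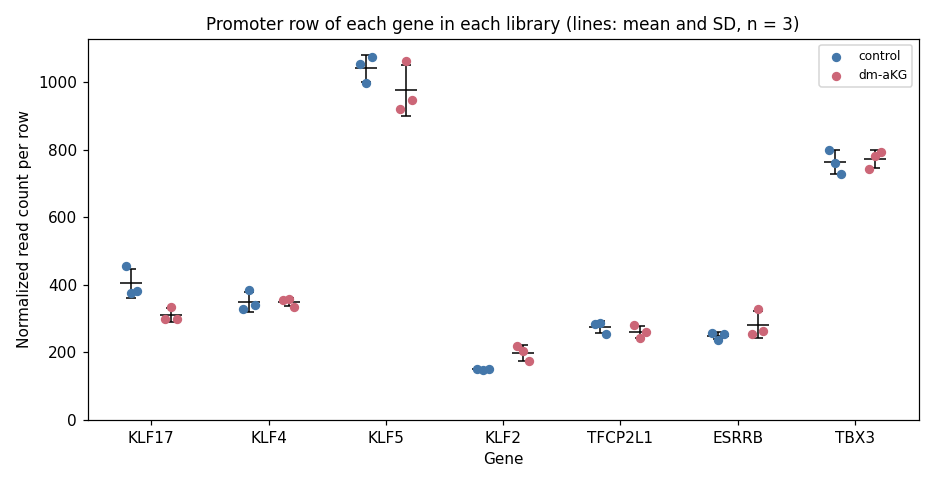
Normalized read count (y axis, from 0) of the promoter region of each of the 7 genes (x axis) in each library, with a point per library and black lines for the mean and SD of 3 libraries. The treated KLF17 points (298 to 334) lie below its controls (377 to 454), the treated KLF2 points (174 to 219) lie above its controls (148 to 151), and the groups of the other 5 genes overlap.

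Summing all regions of a window gives 1 value per gene. The 7 sums were tested among those of 19587 protein-coding genes, where 9.91% of windows fell and 14.6% rose at an adjusted p below 0.01 and the median log2 fold change was 0.02. Windows of neighbouring genes share regions and are not independent. Of the 7, 4 fell, 1 rose and 2 did not pass. KLF17 fell most, from 1714, 1660 and 1620 in control to 1234, 1265 and 1179 (log2 fold change -0.44 ± 0.047, SE, adjusted p = 1.59e-07), and 0.965% of all windows had a lower value. With 100 kb on either side in place of 50 kb, it was -0.092 with an adjusted p of 0.0269.

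KLF4 went from 3238, 3216 and 3038 to 2711, 2822 and 2640 (log2 fold change -0.22 ± 0.036, SE, adjusted p = 4.33e-05). With 10 kb on either side it was 0.011, and each of the 6 KLF4 regions that fell lies 17.8 kb or more from the gene start. TFCP2L1 went from 2653, 2558 and 2612 to 2364, 2276 and 2304 (-0.17 ± 0.037, SE, adjusted p = 0.000706, and 0.0121 without control 1). KLF5 went from 4878, 4963 and 4805 to 4264, 4678 and 4496 (-0.13 ± 0.033, SE, adjusted p = 0.00296), and did not pass without control 1, control 2 or dm-αKG 1, where the adjusted p was 0.0253, 0.0301 and 0.0682, or with 10 kb on either side (-0.10, adjusted p = 0.0622). None of these 4 had overlapping groups.

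The KLF2 window rose, from 883, 977 and 981 to 1112, 1063 and 1066 (log2 fold change 0.20 ± 0.057, SE, adjusted p = 0.00774), also with no overlap. It did not pass with DESeq2 (adjusted p = 0.0130) or without control 1, dm-αKG 1 or dm-αKG 2, where the adjusted p was 0.0700, 0.0457 and 0.0212, or with 10 kb or 100 kb on either side (0.0373 and 0.0266). ESRRB, with 2711, 2676 and 2775 in control and 2724, 2840 and 2842 with dm-αKG, overlapped between groups (0.041 ± 0.036, SE, adjusted p = 0.384). So did TBX3, with 4031, 4201 and 4095 against 4140, 4100 and 3805 (-0.030 ± 0.034, SE, adjusted p = 0.516).

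**Figure D4:**
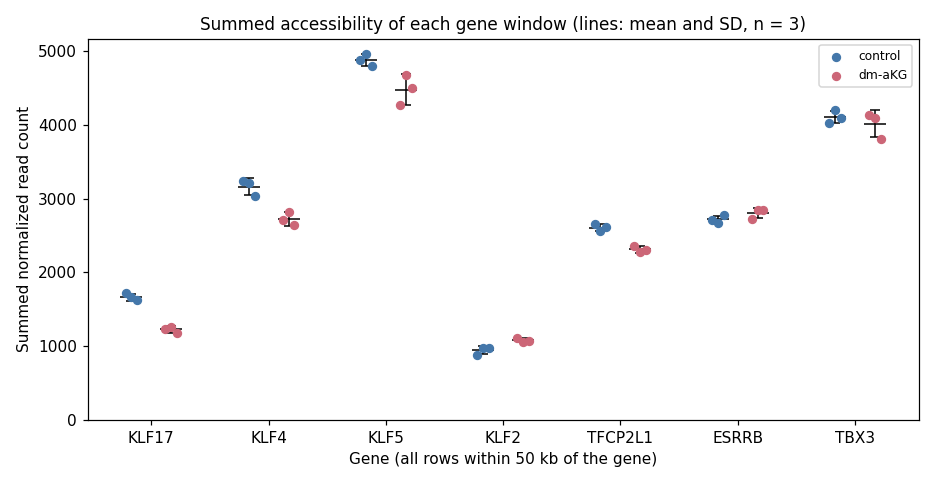
Normalized read counts summed over all regions within 50 kb of each of the 7 genes (y axis, from 0; genes on the x axis) in each library, with a point per library and black lines for the mean and SD of 3 libraries. Treated points lie below the controls for KLF17, KLF4, KLF5 and TFCP2L1 and above them for KLF2, and the groups overlap for ESRRB and TBX3.

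The gene whose window was most like each of the 7 over the 6 libraries, outside the shared neighbourhood, was found by the root mean square difference of centred log2 counts. For KLF17 this was ZBTB47 (0.00937), for KLF4 DCUN1D3 (0.0150), for KLF5 MAGT1 (0.0109), for KLF2 C17orf97 (0.0166), for TFCP2L1 EFR3B (0.0110), for ESRRB DNAJA1 (0.00850) and for TBX3 BICDL2 (0.00912). None of these is another member of the 7. Each was picked from the windows of all protein-coding genes, so this does not show whether the 7 were alike.

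The relatives of the 7 genes were described from a list of 26 paralogues, the other KLFs and the grainyhead, ESRR and T-box relatives. Of 24 with a promoter region, 1 passed the test, GRHL3, which rose (log2 fold change 0.60 ± 0.12, SE, adjusted p = 0.000123), and the median was -0.02. Over all promoters 2.63% fell and 3.74% rose. KLF1 and KLF18 had no promoter region. Among their 26 windows 2 fell, KLF12 (-0.19) and KLF18 (-0.41), whose window shares regions with that of KLF17. Another 4 rose, KLF1 (0.11), KLF16 (0.17), TFCP2 (0.20) and TBX5 (0.23). These counts are near the shares over all gene windows, of which 9.91% fell and 14.6% rose. The paralogue windows had a median log2 fold change of 0.045.

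A list of 24 other genes of the naive network, which includes partners such as NANOG and PRDM14, held more regions that fell than rose. Its promoter regions had a median log2 fold change of -0.12 over 22 genes, against 0.049 over all promoters. DPPA4 (-0.54), TDGF1 (-0.46), GDF3 (-0.40) and FGF4 (-0.37) fell, and SUSD2, a surface marker of naive cells, rose (0.33). Of the 24 windows 11 fell, against 9.91% of all gene windows, with a median over the list of -0.086. They include TDGF1 (-0.44), NANOG (-0.32), PRDM14 (-0.32), FGF4 (-0.29), TFAP2C (-0.23), DPPA4 (-0.22), NR5A2 (-0.21), DPPA2 (-0.20), ZFP42 (-0.16), SALL4 (-0.16) and DPPA3 (-0.14). DPPA2 and DPPA4 are neighbours, so their windows share regions and are not independent. POU5F1 (-0.031, adjusted p = 0.421) and SOX2 (-0.038, adjusted p = 0.413) did not pass.

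The authors' peak lists, made once per treatment from pooled replicates, were used to describe where regions came from, with no test. Of the 175 regions, 121 (69.1%) overlapped a peak of both lists, 33 (18.9%) of the control list alone and 21 (12.0%) of the dm-αKG list alone. Over all regions these shares were 77.4%, 11.7% and 10.9%. ESRRB had 12 of its 37 regions (32.4%) and TBX3 9 of 36 in the control list alone, while the 12 KLF2 regions were in both lists. The 33 regions of the control list alone had a median log2 fold change of -0.46 and the 21 of the dm-αKG list alone 0.26. Being listed in a single treatment and the change in counts rest on the same reads, so these medians are not separate evidence of a change. The called less accessible regions at KLF17, KLF5 and ESRRB were in the control list alone. Of the called more accessible regions, those at KLF5 and TBX3 were in the dm-αKG list alone and those at ESRRB in both lists.

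The member regions were mostly distal. More than 1 kb from any transcript start of a protein-coding gene lay 154 of them (88.0%), against 70.3% of all regions. Of these distal regions 17 fell (11.0%, against 8.42%) and 8 rose (5.19%, against 2.86%). Their median GC content over all 175 was 52.5%, against 55.5%, and the median control count was 74.4, against 65.3.

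Consensus motifs were searched on both strands of the 200 bases around the centre of each region, as a description of letters and not of binding. The OCT octamer ATGCAAAT was in 6 member regions (3.43%, and in 3910 of all 171517 regions) and the SOX core ACAANGG in 24 (13.7%, against 10.0%). The OCT-SOX composite, which is ATTGT, 1 free base and ATGCAAAT with up to 2 mismatches and so overlaps the octamer, was in 3 (1.71%, against 1.62%). Of these 3, 2 were among the 20 regions that fell, 51.9 kb downstream of the KLF4 start and over the KLF5 exon. Over the whole table the composite was in 5.52% of the regions that fell. The KLF motif GGGNGTGG was in 26 (14.9%, against 13.7%), and in 4 of the 20 that fell and 2 of the 11 that rose, against 16.5% and 13.4% of all regions that fell and rose. The TFCP2L1 pattern of CCNG, 6 free bases and CCNG is loose, and was found in 27.7% of all regions and in 37 member regions (21.1%).

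The motifs of 5 other factors or families were also counted. The ESRRB motif TCAAGGTCA was in 1 member region (0.571%, against 0.289%) and the TBX motif AGGTGTGA in 1 (0.571%, against 1.39%). TEAD (GGAATGT) was in 8 (4.57%, against 4.49%), AP-1 (TGANTCA) in 18 (10.3%, against 6.33%) and FOX (TGTTTAC) in 11 (6.29%, against 2.86%). The FOX letters stand in the KLF4 region that fell and in the ESRRB region 207.1 kb downstream that rose. The TBX3 region 40.6 kb downstream, which had the largest rise, carried 2 copies of the TFCP2L1 pattern within a short repeat, and a SOX match beside them.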

How the data were processed

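ATAC-seq was analysed in 3 control and 3 dm-αKG libraries of H9 nES cells, grouped by the treatment in the sample labels. The authors demultiplexed the reads (bcl2fastq 2.20.0.422), trimmed them, aligned them to hg38 with Bowtie2 and filtered them in the ENCODE ATAC-seq pipeline. Peaks came from MACS2, run per replicate, and those reproducible by the irreproducible discovery rate formed 1 list per treatment, in which the authors give each peak a fold enrichment (a ratio of signal to background) and a q-value as −log10. Peaks were cut to 200 bp around the summit and merged, and the authors deposited raw counts per merged region and library (bedtools 2.28.0). Signal from regions called in either treatment is thus counted in both.

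Counts of 171517 regions were fitted with edgeR 4.0.16 under R 4.3.3 (TMM scaling, quasi-likelihood fit, treatment as the only term, Benjamini-Hochberg over all regions). The study's own methods use DESeq2, which here was an alternative (1.42.0). Standard errors are the size of the log2 fold change over the square root of F. Window sums of 19587 of 20007 protein-coding genes were fitted in the same way. Regions were joined to GENCODE 44 in Python 3.11.15, and a promoter region had its centre within 1 kb of a transcript start of the gene. The labels do not tie same-numbered libraries to each other. The smallest p of an exact permutation test on 3 and 3 libraries is 0.10, so tests rest on the fits over all regions. On simulated data with 200 features changed, 87.5% of changed regions were recovered with 1 false call over 171517 regions, and 100% with 2 false calls over 19587 windows. The changes were planted in features above a minimum mean count, with counts drawn from the fitted model. They were larger than nearly all log2 fold changes given here, and the recovery of smaller changes was not tested.

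For each gene the regions described in full were the most open promoter region, the region with the highest count per 200 bases, the 2 with the smallest adjusted p and every called region, and other regions that passed are given briefly. The 7 genes, these rules and the gene lists were chosen with earlier results of these data known. Alternatives were other scalings, a minimum of 10 counts, DESeq2, a replicate block, each library left out, windows of 10 kb and 100 kb, and other thresholds. No count column was left unmatched. The sequence and position of 1 region are not reported here.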

Additional observations from a re-analysis of the deposited data

How the results depend on the processing

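The counts of regions that fell (20), rose (11), were called less (3) or called more accessible (6) stayed within 1.5 times under the other scalings, the minimum of 10 counts and the replicate block. With DESeq2 13 regions fell, and the regions called over the whole table went from 4707 to 3272. Leaving out each library in turn gave 9 to 20 that fell, with 10 without control 1 and 9 without dm-αKG 1. With windows of 10 kb, 8 fell, 7 rose and 1 was called less accessible, and with 100 kb 5 were called less accessible. At an adjusted p below 0.05 with no fold threshold, 33 were lower and 13 higher. Shares over all regions at these other settings are not given, so a shift of the members alone is not shown. Of the gene windows, 4 fell and 1 rose. With 10 kb 2 fell and 0 rose, with 100 kb and with DESeq2 0 rose, and leaving out each library gave 2 to 4 that fell (2 without control 1) and 0 to 1 that rose. In these fits KLF2 stayed above 0. The cause of these shifts was not tested, except that smaller windows hold fewer regions (84 in place of 175).

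The KLF4 window, which fell with 50 kb (-0.22), turned sign to 0.011 with 10 kb (adjusted p = 0.914). The other values that turned sign had not passed the test. The ESRRB window was -0.008 with 100 kb, and the TBX3 window 0.059 with 10 kb and -0.051 to 0.004 with each library left out. The KLF4 promoter was 0.011 with total counts, 0.002 with the replicate block and -0.048 to 0.076 with each library left out, and the TBX3 promoter -0.016 to 0.054. Over the log2 fold changes of single regions and windows, 328 alternative values kept direction and side of the threshold, 38 lost the adjusted p or the fold threshold of a call, and 10 turned sign.

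Same-numbered libraries did not deviate together (correlations -0.0158, -0.00138 and 0.0127, and 1 of 3 controls correlated best with its own number). With the replicate block 19 regions fell, 10 rose and 9 were called, and the KLF2 promoter no longer passed. Libraries of 13025674 counts or more limit what low regions can show, as the lowest summed count of a member region was 57.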
